A study of Homo sapiens with 21 samples.

Results

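Here 10 genes of the NOTCH pathway were followed across 21 RNA-seq libraries of BT-549 cells. They are the 4 receptors NOTCH1, NOTCH2, NOTCH3 and NOTCH4, the 4 ligands JAG1, JAG2, DLL1 and DLL4, and the 2 target genes HES1 and HEY1. The genes were chosen by these roles and were matched to the count table by Ensembl identifier, where all 10 were found among 42339 gene identifiers. BT-549 is an established cell line of triple-negative breast cancer (TNBC). Each of 7 groups had 3 libraries: 2D cells grown as a monolayer, 3D mammospheres at passage 6 without treatment, 3D mammospheres at passage 6 with 0.75 μM GO-203, and mammospheres of 2 lines that carry a doxycycline-inducible shRNA. GO-203 is an inhibitor of the MUC1-C subunit. The tet-MUC1shRNA mammospheres, at passage 6, and the tet-MYCshRNA mammospheres, at passage 8, received 0.1% DMSO as vehicle or 500 ng/ml doxycycline (DOX). Each line carries 1 shRNA sequence in a pLKO-tet-puro vector, in puromycin-selected cells. DOX-treated cells with a control shRNA were not analysed here, so effects of DOX itself and of the shRNA cannot be told apart. All 7 groups share the BT-549 background, and the monolayer and the mammospheres also differ in medium.

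NOTCH receptors are membrane proteins that are activated by Jagged and Delta-like ligands on neighboring cells. Ligand binding lets ADAM proteases and then γ-secretase cut the receptor, and the released intracellular domain enters the nucleus, where it joins the DNA-binding protein RBPJ and a MAML coactivator at target genes. HES1 and HEY1 encode transcriptional repressors and are commonly used as target genes of the pathway. In breast epithelium the pathway takes part in choices of cell fate, and its receptors and ligands have been studied in mammosphere-forming cells. RNA counts give transcript levels and do not measure receptor cleavage.

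Binding of RBPJ is commonly described at the letters TGGGAA, and the HES1 promoter is a commonly used example. The 250 bases before the start of HES1 (chr3:194135898-194136147, plus strand) and of HES4 (chr1:1000098-1000347, minus strand), another gene of the HES family, are shown with TGGGAA and the longer GTGGGAA in capitals. They are from RefSeq on GRCh38.p14 and are written 5′ to 3′ on the strand of the gene.
HES1: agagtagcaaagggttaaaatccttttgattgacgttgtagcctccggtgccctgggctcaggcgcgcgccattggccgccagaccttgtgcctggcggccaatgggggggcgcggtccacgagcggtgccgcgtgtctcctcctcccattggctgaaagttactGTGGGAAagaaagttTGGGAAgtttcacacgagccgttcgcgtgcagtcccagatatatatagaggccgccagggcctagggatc
HES4: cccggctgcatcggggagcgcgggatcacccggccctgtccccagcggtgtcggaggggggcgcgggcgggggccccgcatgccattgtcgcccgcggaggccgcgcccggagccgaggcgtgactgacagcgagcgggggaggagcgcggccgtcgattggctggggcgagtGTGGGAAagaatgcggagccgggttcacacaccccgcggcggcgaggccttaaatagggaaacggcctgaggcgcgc
Both strands were searched, and every GTGGGAA also contains TGGGAA. The HES1 window held TGGGAA at 84 to 79 and at 70 to 65 bases before the start, the first of them as GTGGGAA, and the HES4 window held it at 76 to 71 bases. Of 35116 such windows, 20.8% held TGGGAA at least once, 2.9% held it more than once and 5.43% held GTGGGAA. A promoter entry was found for 8 of the 10 genes (not for DLL1 and HEY1), and HES1 was the only one of these 8 with TGGGAA. None of the 8 windows held CACGTG, an E-box to which MYC is known to bind and which was present in 6.34% of all windows. A match is a description of letters and not a measured site.

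Totals ran from 38026597 to 99751717 counts per library. The mesenchymal markers VIM, ZEB1, CDH2 and FN1 were detected in all 7 groups, with a summed level from 2180 to 16006 CPM (the usual unit of counts brought to 1 common library total, here with TMM factors over the 21 libraries), whereas 6 luminal and hormone receptor markers summed to 18.6 to 43.9 CPM. The 7 endothelial markers, which bear on NOTCH4 and DLL4, summed to 1.10 to 12.4 CPM. The 4 leukocyte markers summed to 0.177 to 1.72 CPM. In every library 72.8% to 77.1% of counts from 2 to 21 were even, so low counts may rest on fewer fragments than they show. Replicate 1 of the DOX-treated tet-MYCshRNA group stood farthest from its replicates. The RNA came from triplicate cultures by the methods of the study, so p-values measure the spread between cultures of a group.

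**Figure D1:**
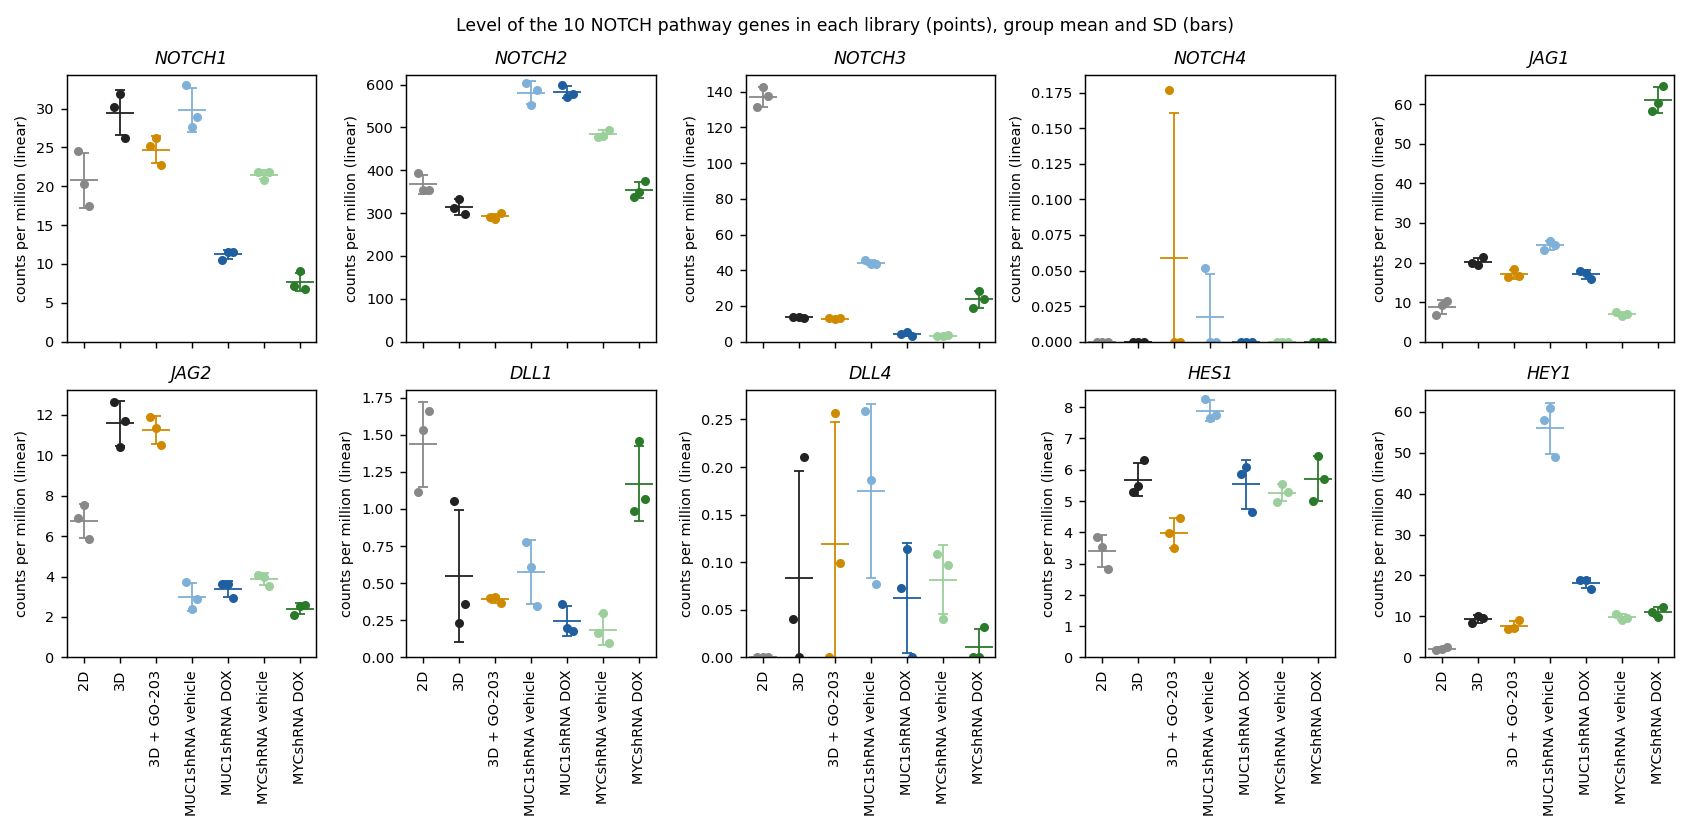
Level of each of the 10 genes in CPM (linear axis, own scale per gene) in the 21 libraries, with 1 point per library and bars for the group mean and SD. NOTCH3 was highest in 2D cells, JAG1 in DOX-treated tet-MYCshRNA mammospheres and HEY1 in vehicle-treated tet-MUC1shRNA mammospheres.

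In 3D against 2D cells, the question was how the pathway's transcripts differ between mammospheres and the monolayer. Here 8 of the 10 genes had enough counts to be tested, and all 8 changed at an adjusted p below 0.1 (edgeR's quasi-likelihood test, Benjamini-Hochberg adjustment over all genes tested). NOTCH1, JAG1, JAG2, HES1 and HEY1 rose (5 genes), whereas NOTCH2, NOTCH3 and DLL1 fell (3 genes). Of all 19190 genes tested, 63.7% changed, with 32.0% higher and 31.7% lower, so a change as such was common. The 2 groups did not overlap for any of the 8, beside 63.9% of all genes. A change above 1.5 on the log2 scale, in either direction, was reached by HEY1, as by 6.90% of all genes that were higher to this extent, and by NOTCH3, as by 9.29% that were lower (16.2% together). The median absolute log2 fold change was 1.04 over the 8 genes and 0.50 over all genes tested. In bulk RNA, a lower share of cells with a transcript and less of it per cell cannot be told apart.

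GO-203 treatment of 3D cells, which targets the MUC1-C protein, was followed by smaller differences. NOTCH1, JAG1 and HES1 were lower (3 of 8 genes tested), none was higher, and 5 did not pass. No gene of the 10 was higher at an unadjusted p below 0.05 (0 genes) or by DESeq2 (0 genes) either. Over all 18488 genes tested, 24.1% changed, with 11.1% higher and 12.9% lower. The groups did not overlap for NOTCH1, NOTCH3, JAG1 and HES1 (4 genes, beside 33.5% of all). None of the 10 changed by more than 1.5 on the log2 scale, which 0.757% of all genes did (0.498% higher and 0.260% lower). This comparison shares its 3D libraries with the one before, so the 2 are not independent. Without replicate 1 of the 3D group, 1 of the 3 changes was left (HES1).

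DOX treatment of the tet-MUC1shRNA line, which silences MUC1, lowered NOTCH1, NOTCH3, JAG1, DLL1, HES1 and HEY1 (6 of 8 genes tested), whereas NOTCH2 and JAG2 did not pass. The share of genes lower was 31.6% of all 19220 tested, 30.7% were higher and 62.2% changed in either direction. The groups did not overlap for these 6 genes, on the scale of this comparison, beside 62.6% of all. NOTCH3 and HEY1 fell by more than 1.5 on the log2 scale, as did 3.08% of all genes, whereas 5.74% rose by as much (8.82% together). No gene of the 10 was higher by edgeR, at an unadjusted p below 0.05 (0 genes) or by DESeq2 (0 genes). Scaling by library size alone shifted the median of all genes from 0.02 to 0.19 on the log2 scale and raised the share of higher genes among those that changed from 49.3% to 64.4%. NOTCH2 and JAG2 then passed as higher, at 0.16 and 0.34.

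DOX treatment of the tet-MYCshRNA line lowered MYC RNA only in part (log2 fold change -0.62). It gave 3 genes higher (NOTCH3, JAG1 and DLL1) and 3 lower (NOTCH1, NOTCH2 and JAG2), whereas HES1 and HEY1 did not pass. Of all 19951 genes tested, 58.5% changed, with 30.3% higher and 28.1% lower. The groups did not overlap for these 6 genes, beside 59.4% of all. NOTCH3, JAG1 and DLL1 rose by more than 1.5 on the log2 scale, as did 7.06% of all genes, and NOTCH1 lay just past the same limit in the other direction, as did 3.39% (10.5% together). Leaving out replicate 1 of the DOX group, which stood apart, left 6 genes changed.

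**Figure D2:**
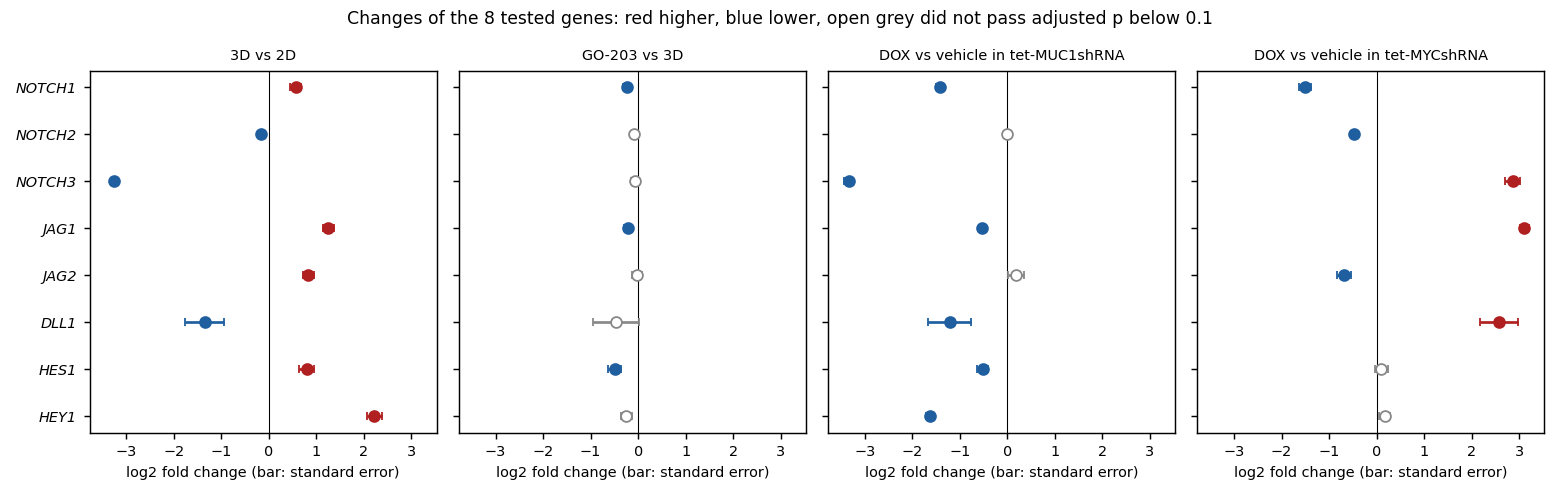
Log2 fold change (x axis) of the 8 tested genes in the 4 comparisons, with bars for the standard error. All 8 filled points in the 3D against 2D panel passed an adjusted p below 0.1, and NOTCH3, JAG1 and DLL1 lie on opposite sides of 0 in the tet-MUC1shRNA and tet-MYCshRNA panels.

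The silenced genes were measured first in the tet lines. MUC1, a transmembrane mucin, was at 101, 82.4 and 85.3 CPM with vehicle and at 20.2, 21.6 and 23.1 CPM with DOX in the tet-MUC1shRNA line, and its log2 fold change was -2.06 (SE 0.07, adjusted p = 3.0e-15). MYC, a transcription factor of cell growth, was at 446, 425 and 382 CPM with vehicle and at 239, 282 and 304 CPM with DOX in the tet-MYCshRNA line, a log2 fold change of -0.62 (SE 0.08, adjusted p = 9.1e-05). Neither pair of groups overlapped. The DOX mean of MYC in the tet-MYCshRNA line was still 275 CPM. That was above the means of vehicle-treated tet-MUC1shRNA mammospheres (242 CPM) and of 2D cells (87.1 CPM). In the tet-MYCshRNA line MUC1 rose by 1.25 on the log2 scale (adjusted p = 5.1e-06), and in the tet-MUC1shRNA line MYC rose by 0.25 (adjusted p = 5.0e-05).

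NOTCH1, the receptor first described in T cell leukemia (chr9:136494433-136546048, GRCh38, GENCODE release 44), was at 24.5, 20.3 and 17.5 CPM in 2D cells and at 30.3, 31.9 and 26.2 CPM in 3D cells. The groups did not overlap, and the log2 fold change was 0.56 (SE, the standard error, 0.11, adjusted p = 0.00038). With GO-203 the 3 libraries had 25.2, 26.2 and 22.8 CPM, a log2 fold change of -0.24 (SE 0.08, adjusted p = 0.042), and the highest of them was just below the lowest 3D library. This call was lost without replicate 3 of the GO-203 group or without replicate 1 or 2 of the 3D group, and in a fit of all 21 libraries. Vehicle-treated tet-MUC1shRNA mammospheres had 33.1, 27.6 and 28.9 CPM and DOX-treated ones 10.6, 11.6 and 11.5 CPM. Every DOX library was thus far below every vehicle library, and NOTCH1 fell by 1.42 on the log2 scale (SE 0.08, adjusted p = 3.6e-12). For the tet-MYCshRNA line the levels were 21.8, 20.9 and 21.8 CPM with vehicle and 7.22, 9.06 and 6.78 CPM with DOX. There NOTCH1 fell by 1.50001 (SE 0.12, adjusted p = 3.7e-06). The DOX effects of the 2 lines differed by 0.07 (SE 0.15, adjusted p = 0.75), which did not pass the test of the difference.

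NOTCH2 (chr1:119911553-120100779), a receptor widely present in epithelia, was the most counted of the 10 genes. Its level was 393, 355 and 353 CPM in 2D cells and 312, 334 and 298 CPM in 3D cells. The groups did not overlap, but the log2 fold change was only -0.17 (SE 0.06, adjusted p = 0.032), and it no longer passed without 2D replicate 1 or without 3D replicate 1 or 3. With GO-203 the level was 289.8, 287 and 299.7 CPM, so that 1 library lay within the range of the 3D cells and the others below it (log2 fold change -0.09, adjusted p = 0.33). The tet-MUC1shRNA line had higher levels, at 604, 553 and 587 CPM with vehicle and 599, 572 and 578 CPM with DOX. These groups overlapped, and the log2 fold change was -0.01, with a 95% interval from -0.09 to 0.08 (adjusted p = 0.93). With silencing of MYC, NOTCH2 fell from 477, 479 and 494 CPM to 338, 349 and 374 CPM. That was a log2 fold change of -0.47 (SE 0.06, adjusted p = 6.4e-05), and the difference between the lines passed at 0.45 (SE 0.07, adjusted p = 4.0e-05).

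NOTCH2 has near-identical partial copies on the same chromosome, between which reads could be divided, and the treatment of multi-mapping reads is not given in the sources used here. Of these copies, NOTCH2NLB and NOTCH2NLR were not tested. NOTCH2NLC had at most 5.85 CPM as a group mean in the tet-MUC1shRNA comparison, where it rose by 0.36 on the log2 scale (adjusted p = 0.025). NOTCH2NLA and NOTCH2NLC were also higher with GO-203, by 0.79 and 0.49 (adjusted p = 0.098 and 0.099), and NOTCH2NLA was higher by 0.60 with DOX in the tet-MYCshRNA line (adjusted p = 0.09). The NOTCH2 value is uncertain by the reads that it shares with these copies.

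NOTCH3 (chr19:15159038-15200995), a receptor known from vascular smooth muscle and from some basal-like breast cancers, had the highest ratio between group means of CPM among the receptors that were tested. It stood at 131, 142 and 137 CPM in 2D cells and at 14.1, 13.9 and 13.4 CPM in 3D cells. NOTCH3 fell by 3.26 on the log2 scale (SE 0.06, adjusted p = 2.6e-16), and each 3D library was far below each 2D library. With GO-203 it was at 12.99, 12.8 and 13.1 CPM, each below every untreated 3D library, but the log2 fold change of -0.07 did not pass (95% interval -0.24 to 0.10, adjusted p = 0.64). In the tet-MUC1shRNA line it was at 45.9, 43.7 and 43.3 CPM with vehicle and at 4.46, 5.30 and 3.20 CPM with DOX. That fall of 3.34 on the log2 scale (SE 0.10, adjusted p = 2.2e-16) was about as large as the one between 2D and 3D cells. In the tet-MYCshRNA line the direction was the opposite, from 2.99, 2.99 and 3.68 CPM to 18.9, 28.4 and 23.7 CPM. NOTCH3 rose by 2.86 there (SE 0.16, adjusted p = 2.9e-07), and the effects of DOX in the 2 lines differed by -6.24 (SE 0.22, adjusted p = 3.4e-13).

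The vehicle-treated groups themselves differed in NOTCH3. The tet-MUC1shRNA vehicle mean was 44.3 ± 1.41 CPM (SD, n = 3), the untreated 3D mean 13.8 ± 0.339 and the tet-MYCshRNA vehicle mean 3.22 ± 0.399, with no overlap among the 3 groups. These groups differ in the line and the vehicle, and the last of them also in passage, which cannot be told apart. After DOX, the lines stood in the reverse order, with 4.32 ± 1.06 CPM in the tet-MUC1shRNA line and 23.7 ± 4.78 CPM in the tet-MYCshRNA line.

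NOTCH4 (chr6:32194843-32224067), a receptor known from endothelium, was all but undetected. It was counted in 2 of the 21 libraries, with 8 counts in replicate 1 of the GO-203 group and 2 counts in replicate 1 of the vehicle-treated tet-MUC1shRNA group. In the 2D, 3D and tet-MYCshRNA groups (12 libraries) its cells in the table were empty and were read as 0. In the groups where it was listed, a count of 0 allowed up to 0.0426 to 0.0778 CPM by library (3 counts, for counting error only), and no fold change is given.

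Among the ligands, JAG1 (chr20:10637684-10673999) had the highest ratio between group means of CPM of the 3 that were tested. Its level was 6.78, 9.20 and 10.3 CPM in 2D cells and 19.8, 19.3 and 21.3 CPM in 3D cells, and the log2 fold change was 1.25 (SE 0.12, adjusted p = 1.6e-07). The 3D cells with GO-203 had 16.3, 18.4 and 16.6 CPM. Each of these was below every untreated 3D library, but the change was only -0.22 (SE 0.08, adjusted p = 0.058), and it no longer passed without replicate 1 or 3 of either group. With silencing of MUC1, JAG1 went from 23.1, 25.5 and 24.4 CPM to 17.9, 17.2 and 15.8 CPM, a log2 fold change of -0.53 (SE 0.07, adjusted p = 1.5e-06). In the tet-MYCshRNA line it went from 7.41, 6.58 and 6.96 CPM to 58.2, 60.3 and 64.6 CPM. This rise of 3.11 on the log2 scale (SE 0.09, adjusted p = 5.4e-09) brought JAG1 to its highest level of any group. The effects of DOX in the 2 lines differed by -3.66 (SE 0.11, adjusted p = 3.9e-14). Exons of JAG1 shared 3.29% of their bases with a gene on the other strand.

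JAG2 (chr14:105140982-105168824), the second Jagged ligand, was at 6.89, 7.53 and 5.86 CPM in 2D cells and at 12.6, 10.4 and 11.7 CPM in 3D cells, which was a change of 0.83 on the log2 scale (SE 0.12, adjusted p = 2.1e-05). The GO-203 libraries, at 11.9, 11.4 and 10.5 CPM, lay within or near the range of the 3D cells (95% interval of the change -0.22 to 0.18, adjusted p = 0.91). In the tet-MUC1shRNA line the groups overlapped, with 3.71, 2.38 and 2.86 CPM under vehicle and 3.61, 3.61 and 2.93 CPM under DOX (95% interval -0.16 to 0.51, adjusted p = 0.39). The tet-MYCshRNA line went down from 4.08, 3.999 and 3.52 CPM to 2.12, 2.53 and 2.60 CPM. JAG2 fell by 0.69 on the log2 scale there (SE 0.15, adjusted p = 0.0026), opposite to JAG1, and the difference between the lines was 0.86 (SE 0.23, adjusted p = 0.0055). All 12 libraries of the tet lines were below every library of the 2D cells, whether treated or not. Of the JAG2 exon bases, 7.33% are shared with another gene on the same strand.

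DLL1 (chr6:170282206-170306565), a Delta-like ligand, was low throughout, with 42 to 230 counts per group. It stood at 1.12, 1.53 and 1.66 CPM in 2D cells and at 1.06, 0.231 and 0.362 CPM in 3D cells, so 1 of the 3D libraries lay just below the lowest 2D library. The log2 fold change was -1.36 (SE 0.41, adjusted p = 0.010), and it was -2.17 without that library, replicate 1. With GO-203 the level was 0.398, 0.410 and 0.365 CPM, inside the range of the 3D cells, and the change of -0.46 (95% interval -1.41 to 0.49) turned to 0.40 without replicate 1 of the 3D group. The tet-MUC1shRNA line had 0.778, 0.607 and 0.348 CPM with vehicle and 0.363, 0.199 and 0.180 CPM with DOX. Those groups overlapped on this scale, and the change of -1.21 (SE 0.45, adjusted p = 0.027) was no longer called without replicate 1 of the vehicle group (-0.95, adjusted p = 0.14). DOX in the tet-MYCshRNA line raised DLL1 from 0.162, 0.300 and 0.0969 CPM to 0.989, 1.46 and 1.07 CPM, a log2 fold change of 2.57 (SE 0.40, adjusted p = 0.00033). The difference between the lines was -3.79 (SE 0.61, adjusted p = 4.9e-05). All 21 DLL1 counts were even, so each may rest on fewer fragments than its count, and 9.69% of its exon bases lie opposite exons of FAM120B, from which reads cannot be told apart without strand.

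DLL4 (chr15:40929340-40939073), a ligand known from endothelial tips, was counted at 0 in all 3 of the 2D libraries and in 2 to 22 counts per group elsewhere, and it was not tested under the filter on low counts. Its levels reached at most 0.259 CPM, in a vehicle-treated tet-MUC1shRNA library. With no such filter, the adjusted p for 3D against 2D was 0.025 on a total of 16 counts against 0. The 3D libraries held 2, 0 and 14 of these counts, so the total rested mainly on replicate 3. All 21 DLL4 counts were even, so they may rest on fewer fragments. The 7 endothelial markers also had a higher sum in the 3D than in the 2D libraries, at 6.29 to 7.84 CPM against 1.10 to 1.80 CPM. This rested on PECAM1, with 1115 counts in the 3D cells and 2 in the 2D cells, whereas TEK, with 205 counts in the 2D cells and 95 in the 3D cells, and VWF, with 14 and 4 counts, were lower in the 3D cells. CDH5 and ERG were at 0 in both groups. The part of these markers in the DLL4 counts was not tested.

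HES1 (chr3:194136148-194138732), whose promoter is printed above, was at 3.84, 3.54 and 2.84 CPM in 2D cells and at 5.28, 5.48 and 6.30 CPM in 3D cells. The log2 fold change was 0.80 (SE 0.16, adjusted p = 0.00036), and the groups did not overlap. With GO-203 HES1 stood at 3.98, 3.49 and 4.45 CPM. This fall of 0.50 on the log2 scale (SE 0.14, adjusted p = 0.018) passed also when any 1 of the 6 libraries was left out, with values from -0.59 to -0.41. In the tet-MUC1shRNA line HES1 went from 8.27, 7.65 and 7.74 CPM to 5.87, 6.08 and 4.64 CPM (log2 fold change -0.52, SE 0.11, adjusted p = 0.00060). In the tet-MYCshRNA line the groups overlapped, with 4.98, 5.54 and 5.29 CPM under vehicle and 5.00, 6.44 and 5.72 CPM under DOX. The interval of that change ran from -0.16 to 0.36 (adjusted p = 0.55). The difference between the lines was -0.63 (SE 0.17, adjusted p = 0.0060).

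HEY1 (chr8:79762371-79767857), which encodes a repressor related to HES1, was at 1.74, 1.92 and 2.58 CPM in 2D cells and at 8.37, 10.1 and 9.58 CPM in 3D cells. This rise of 2.22 on the log2 scale was the largest among the 8 tested genes (SE 0.16, adjusted p = 4.1e-09). With GO-203 the level was 6.94, 7.25 and 9.09 CPM, which overlapped the 3D cells, and the change of -0.25 did not pass (adjusted p = 0.18). Without replicate 3 of the GO-203 group it was -0.38 and passed (adjusted p = 0.054). On silencing of MUC1, HEY1 fell from 58.0, 61.0 and 49.0 CPM to 18.9, 18.9 and 16.7 CPM, by 1.63 on the log2 scale (SE 0.07, adjusted p = 9.3e-14). The tet-MYCshRNA line had 10.6, 9.22 and 9.59 CPM with vehicle and 11.2, 9.94 and 12.3 CPM with DOX. These groups overlapped (95% interval of the change -0.06 to 0.40, adjusted p = 0.25), and the difference between the lines was -1.82 (SE 0.14, adjusted p = 5.6e-09).

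The order of the 7 groups was different for each gene. For NOTCH3 the highest group mean was 42.6 times the lowest, and the neighbors in that order overlapped in 1 of 6 pairs, between DOX-treated tet-MUC1shRNA and vehicle-treated tet-MYCshRNA mammospheres. The ratio was 26.9 for HEY1, 8.74 for JAG1, 7.70 for DLL1, 4.79 for JAG2, 3.88 for NOTCH1, 2.32 for HES1 and 1.99 for NOTCH2. Neighbors overlapped in 4 of 6 pairs for JAG2, DLL1 and HES1, so their order was only in part resolved. For HES1 the 4 groups from DOX-treated tet-MYCshRNA (5.72 ± 0.717 CPM, SD, n = 3) down to vehicle-treated tet-MYCshRNA mammospheres (5.27 ± 0.282) could not be put in order, and vehicle-treated tet-MUC1shRNA mammospheres stood above them at 7.89 ± 0.335.

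Vehicle-treated tet-MUC1shRNA mammospheres are also at passage 6 and could stand in for 3D cells. Set against 2D cells in their place, NOTCH2 was higher (0.70) rather than lower, and JAG2 lower (-1.14) rather than higher. The directions of the other 6 tested genes were as with the untreated 3D cells, but the size moved to -1.59 for NOTCH3, 1.25 for HES1 and 4.78 for HEY1. Of the other pathway genes named further on, APH1B moved to -0.55, DTX4 to 1.72 and TLE3 to 5.90 in this setting, and DLK2 turned to -0.12. The DMSO, the vector and the selection of the line cannot be told apart in this. Vehicle-treated tet-MYCshRNA mammospheres, at passage 8, were not fitted against 2D cells. Their mean was 6.98 CPM for JAG1, against 8.77 in 2D cells, and 21.5 CPM for NOTCH1, against 20.8. Both genes overlapped the 2D cells, so neither rise was seen there. By group means, NOTCH2, HES1 and HEY1 were higher in them than in 2D cells, and NOTCH3, JAG2 and DLL1 lower.

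Levels of different genes were compared per kilobase of exon. On that scale NOTCH2 made up most of the receptor transcripts in every group, from 57.4% ± 1.94 (SD, n = 3) in 2D cells to 96.3% ± 0.368 in DOX-treated tet-MUC1shRNA mammospheres. NOTCH3 held 38.2% ± 2.44 of the receptor transcripts in 2D cells and 6.51% ± 0.290 in 3D cells. Its share fell from 11.3% ± 0.338 to 1.27% ± 0.316 with DOX in the tet-MUC1shRNA line and went from 1.10% ± 0.114 to 10.3% ± 1.77 in the tet-MYCshRNA line. NOTCH1 held at most 10.4% ± 0.487, in 3D cells. The sum of the receptors was 38.1 ± 1.17 CPM per kilobase in 2D cells and 22.6 ± 1.33 in 3D cells, and the ranges did not overlap, but vehicle-treated tet-MUC1shRNA mammospheres, at 41.8 ± 1.86, lay above both.

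The 4 ligands, summed without DLL3 (1.22 to 4.08 CPM as group means), were much scarcer, at 2.38 ± 0.246 CPM per kilobase in 2D cells and 4.14 ± 0.329 in 3D cells. JAG1 and JAG2 held 39.5% ± 5.27 and 44.8% ± 7.13 of them in 2D cells, and 52.5% ± 3.53 and 43.7% ± 1.13 in 3D cells. Such shares depend on the length used, here all annotated exons merged (9298 bases for JAG1 and 6396 for JAG2). In CPM the mean of JAG1 in 2D cells, 8.77, was above that of JAG2, 6.76. With DOX in the tet-MYCshRNA line the sum went from 1.42 ± 0.0782 to 7.25 ± 0.394 CPM per kilobase, and the JAG1 share from 52.9% ± 2.92 to 90.5% ± 1.10, whereas the JAG2 share went from 42.5% ± 1.56 to 5.20% ± 0.328. In the tet-MUC1shRNA line the sum went from 3.27 ± 0.0816 to 2.43 ± 0.204 CPM per kilobase, with JAG1 at 80.0% ± 4.55 before and 75.2% ± 1.69 after. DLL1 held 15.7% ± 1.86 of this 4-ligand sum in 2D cells and no more than 4.60% ± 1.64 in any mammosphere group.

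**Figure D3:**
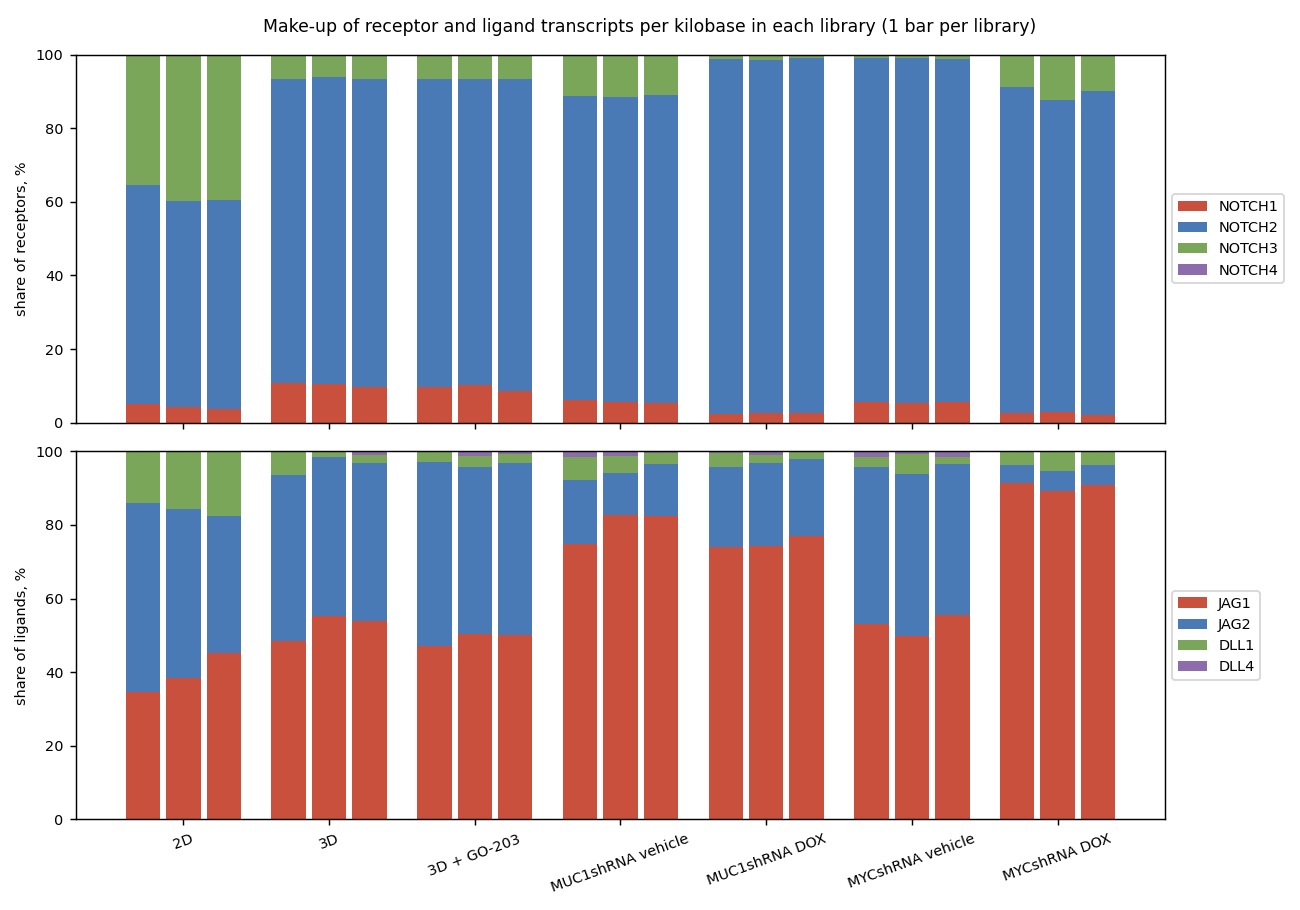
Share of each receptor (top) and ligand (bottom) in the summed transcripts of its class per kilobase of exon, in percent, with 1 bar per library in the 7 groups. NOTCH2 is the largest receptor share in every library, and JAG1 fills about 9 parts in 10 of the ligands in DOX-treated tet-MYCshRNA mammospheres.

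A further 58 genes act elsewhere in the pathway, in 8 lists by role. Between 3D and 2D cells 23 rose and 16 fell of 51 tested, where 32.0% of all genes were higher and 31.7% lower. In the other comparisons 6 rose and 9 fell of 52 tested with GO-203 (24.1% of all genes changed), 16 rose and 22 fell of 52 in the tet-MUC1shRNA line (62.2% of all), and 21 rose and 17 fell of 53 in the tet-MYCshRNA line (58.5% of all). The median log2 fold change of those tested was 0.13, -0.01, -0.02 and -0.04 in the 4 comparisons, and that of all genes tested was -0.01, 0.02, 0.02 and 0.01.

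Among other targets and feedback genes, HES7, a HES family repressor, rose by 3.39 on the log2 scale in 3D cells (SE 0.14, adjusted p = 3.7e-12) and fell with DOX in both lines, by 1.43 for tet-MUC1shRNA (adjusted p = 2.9e-11) and by 1.28 for tet-MYCshRNA (adjusted p = 8.2e-06). NRARP, a feedback inhibitor that binds the NOTCH intracellular domain, rose by 0.92 in 3D cells (adjusted p = 2.9e-05) and fell by 0.46 with GO-203 (SE 0.13, adjusted p = 0.014). It rose by 0.60 with DOX in the tet-MUC1shRNA line (adjusted p = 0.00031), where HES1 and HEY1 fell. With DOX in the tet-MYCshRNA line NRARP went from 2.79, 2.14 and 2.68 CPM to 0.277, 0.156 and 0.387 CPM, a fall of 3.21 (SE 0.30, adjusted p = 9.2e-06). HES2 rose by 3.14 with DOX in the tet-MUC1shRNA line (SE 0.70, adjusted p = 0.00061), from 0.0485 ± 0.0468 to 0.427 CPM. HES4, the gene whose promoter is printed above and which was picked with its values known, fell by 0.73 in 3D cells (adjusted p = 0.0012) and rose by 1.06 with DOX in the tet-MYCshRNA line (adjusted p = 0.0063). It did not pass with GO-203 or in the tet-MUC1shRNA line, at 0.02 and 0.07.

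In the nuclear complex, RBPJ, the DNA-binding subunit, rose by 0.38 in 3D cells (adjusted p = 1.7e-05). It fell by 0.73 with DOX in the tet-MUC1shRNA line (SE 0.04, adjusted p = 2.9e-12) and by 0.62 in the tet-MYCshRNA line (adjusted p = 8.6e-06), and the difference between the lines did not pass (-0.12, adjusted p = 0.15). KAT2B, an acetyltransferase, rose by 0.74 in 3D cells (adjusted p = 6.2e-08) and fell by 0.46 with GO-203 (SE 0.06, adjusted p = 7.4e-06). MAML3, a coactivator, was at 0 in every 2D library and at least 7.52-fold higher in 3D cells (floor of 3 counts per library), though its mean there was only 0.423 CPM. With DOX in the tet-MYCshRNA line it stood at -1.39 on the log2 scale (adjusted p = 0.076), which was lost in 5 of 6 fits that left out a library. Among the corepressors, TLE3 rose by 4.21 in 3D cells (SE 0.25, adjusted p = 3.4e-10) and fell by 0.62 and 0.49 with DOX in the tet-MUC1shRNA and tet-MYCshRNA lines (adjusted p = 6.5e-06 and 0.0031). TLE1, which rose in all 4 comparisons, rose by 0.60 with GO-203 (adjusted p = 1.8e-07) and by 0.93 with DOX in the tet-MYCshRNA line (adjusted p = 5.1e-06). CTBP1 fell by 1.11 with DOX in the tet-MUC1shRNA line (SE 0.06, adjusted p = 2.2e-12).

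Among the genes of receptor turnover, DTX4, an E3 ligase of the Deltex family, rose by 5.48 on the log2 scale in 3D cells (SE 0.21, adjusted p = 1.6e-12) and by 4.61 with DOX in the tet-MUC1shRNA line (SE 0.14, adjusted p = 2.2e-16). DTX4 also rose by 2.34 with DOX in the tet-MYCshRNA line (adjusted p = 2.3e-05) and by 0.38 with GO-203 (adjusted p = 0.012). DTX3L, of the same family, fell by 1.55 in 3D cells (adjusted p = 1.6e-12), and rose by 0.65 with DOX in the tet-MUC1shRNA line (adjusted p = 4.1e-09), by 0.46 with GO-203 (adjusted p = 6.1e-06) and by 2.43 with DOX in the tet-MYCshRNA line (SE 0.07, adjusted p = 5.4e-09). In receptor cleavage, APH1B, a γ-secretase subunit, fell by 1.82 in 3D cells (SE 0.09, adjusted p = 3.4e-11) and by 0.43 with DOX in the tet-MUC1shRNA line (adjusted p = 0.00024), and rose by 1.58 with DOX in the tet-MYCshRNA line (adjusted p = 3.3e-07), where 7 of 9 cleavage genes rose and 1 fell, beside 30.3% and 28.1% of all genes. Other subunits that moved were NCSTN, higher by 0.22 with GO-203 (adjusted p = 0.0067), and PSEN2, higher by 1.28 with DOX in the tet-MUC1shRNA line (adjusted p = 2.4e-05).

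Of the ligases that act on ligands, NEURL1B fell by 3.23 in 3D cells (SE 0.09, adjusted p = 2.5e-14) and MIB2 by 0.58 with DOX in the tet-MUC1shRNA line (adjusted p = 5.3e-05). NEURL1 was higher by 1.35 with DOX in the tet-MYCshRNA line (adjusted p = 0.022), a call lost without DOX replicate 2. Among the glycosyltransferases, MFNG, a Fringe enzyme, rose by 3.56 in 3D cells (adjusted p = 0.00029) and fell by 1.65 with DOX in the tet-MUC1shRNA line (adjusted p = 0.0059), with means of at most 0.471 CPM in these 4 groups. POGLUT2, which adds glucose to EGF repeats, fell by 1.27 with DOX in the tet-MYCshRNA line (adjusted p = 2.4e-07). With GO-203, 0 of 8 glycosylation genes passed (0 also at an unadjusted p below 0.05 and 0 by DESeq2), beside 24.1% of all genes. Of the other ligands, DLL3 fell by 1.19 with DOX in the tet-MYCshRNA line (adjusted p = 0.00034), and DLK2 was higher by 0.32 in 3D cells (adjusted p = 0.084), a call lost in 4 of 6 fits without a library, with library size alone, with no filter on low counts, with at least 10 counts in every library and in the fit of all 21 libraries (adjusted p = 0.13).

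**Figure D4:**
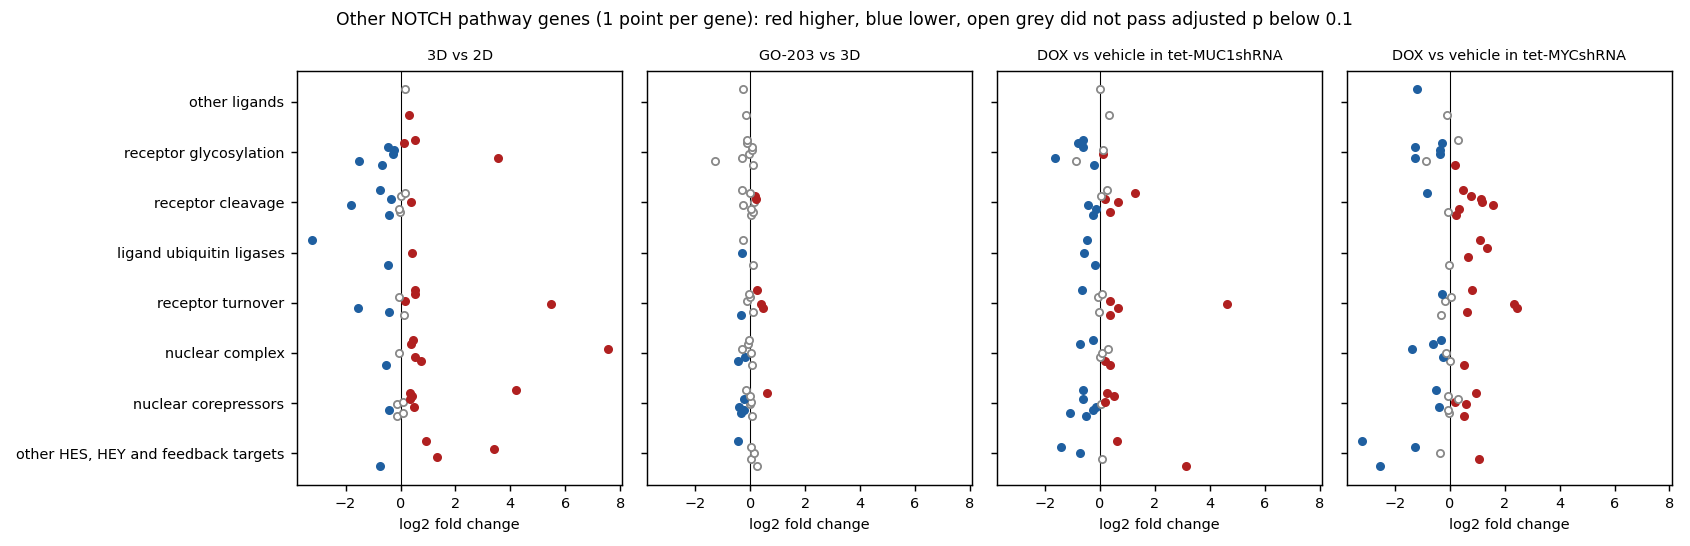
Log2 fold change (x axis) of the other pathway genes by role, with 1 point per gene tested in the 4 comparisons. Filled red and blue points passed an adjusted p below 0.1 (23 and 16 in 3D against 2D cells, 6 and 9 with GO-203), and the far right points are MAML3 and DTX4 in 3D cells.

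Across the 12 libraries of the tet lines, the DOX effects of the 2 lines were compared directly as an interaction. They differed for 7 of the 8 genes tested, 2 higher and 5 lower in the tet-MUC1shRNA line, against 52.9% of all 21585 genes tested (26.0% higher and 26.9% lower), and in 6 of these 7 the changes had opposite signs in the 2 lines, though HES1, HEY1 and JAG2 each had a change on 1 side that did not pass on its own. NOTCH3, JAG1 and DLL1 changed in both lines and in opposite directions. For DLL1 the call in the tet-MUC1shRNA line was lost without vehicle replicate 1 (adjusted p = 0.14). Of the other pathway genes, 38 of 53 tested differed, 23 of them with opposite signs, and signs were opposite for 61.7% of the 10709 genes of the whole table that differed and were tested in both lines. The tet lines also differ in passage, so a difference of shRNA and of passage cannot be told apart.

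For the 7 genes other than NOTCH4, DLL1 and DLL4, the genes whose levels followed them most closely across the 21 libraries were found by Pearson's r of log2(CPM + 0.5) among 13587 other genes with a mean of at least 1 CPM. As the 21 libraries fall into 7 groups of 3, these values are a description. For NOTCH3 the nearest were COL15A1 (r = 0.99), LPAR1 (0.98) and NBAS (0.97). For JAG1 they were GPR155 (0.96), TGFBR3 (0.95) and CALCOCO1 (0.95), and for HEY1 TANC2 (0.98), SIK1 (0.97) and ANKRD42 (0.96). The 3 nearest to NOTCH1 were RBM38 (0.95), PLAC8 (0.94) and FGFR4 (0.94), and those nearest to NOTCH2 were XPO7 (0.97), ITGB3 (0.95) and OSGIN2 (0.95). JAG2 was followed most closely by ECPAS (0.96) and STARD13 (0.94), and HES1 by FBXL4 (0.93), TBX3 (0.92) and LIX1L (0.92).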

How the data were processed

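The authors prepared stranded, paired-end mRNA libraries, mapped them to GRCh38 by STAR, and deposited raw counts per gene from featureCounts, without normalization. STAR 2.7.3a, CASAVA 1.8.2 and DESeq2 are named in the submitters' processing notes. The release of the annotation, how strand was set and how multi-mapping reads were treated are not given in the sources used here. The table lists 42339 identifiers, 42252 with a symbol. Empty cells, which cover whole blocks of libraries, were read as 0. Groups were taken from the sample labels.

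In R 4.3.3, each comparison was fitted on its 6 libraries with edgeR 4.0.16: filterByExpr, TMM factors, quasi-likelihood tests, and p-values adjusted by Benjamini and Hochberg over all genes tested. A gene changed when its adjusted p was below 0.1. The difference of the DOX effects was an interaction over 12 libraries. Standard errors are the log2 fold change over the square root of F, and 95% intervals span 1.96 of them either way. Levels are CPM scaled over the 21 libraries, and per kilobase of exon from GENCODE release 44, with all annotated exons of a gene merged. Scripts were tested on simulated data. The members and lists were chosen with earlier results of these data known. Besides the members, the genes named are MUC1, MYC, the NOTCH2 copies, from each list and comparison the changed gene without overlap that had the largest log2 fold change, and the 3 genes most like each member with a mean of at least 1 CPM, of which 1 is not reported here. HES4 and the endothelial markers were named outside this rule, after their values were seen.

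The alternatives were DESeq2 1.42.0, RLE factors, library size alone, no filter, 1 fit of all 21 libraries, a minimum of 10 counts in every library, a replicate block, an adjusted p below 0.05, an absolute log2 fold change above 1.5, another mammosphere group, and leaving out each library. Halved counts were added after seeing the data.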

Additional observations from a re-analysis of the deposited data

Results flagged for a closer look

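The effect of DOX differed between the tet-MUC1shRNA and tet-MYCshRNA lines, by a test of the difference itself over 12 libraries, for 7 of the 8 genes tested, beside 52.9% of all genes. The difference (log2 change in the tet-MUC1shRNA line minus that in the tet-MYCshRNA line) was 0.45 for NOTCH2, -6.24 for NOTCH3, -3.66 for JAG1, 0.86 for JAG2, -3.79 for DLL1, -0.63 for HES1 and -1.82 for HEY1. For NOTCH3, JAG1 and DLL1 both lines changed and in opposite directions, from vehicle levels that also differed between the lines. The DLL1 change in the tet-MUC1shRNA line rested on 74 counts with vehicle and 42 with DOX. Its call was lost without vehicle replicate 1. With 3 samples in each group, no level of a gene was tested for a single outlying sample.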

How the results depend on the processing

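Outside the fits that left out a library, 614 log2 changes kept their direction and call, 9 lost the call, 1 gained it and 6 changed sign. The last 6 were counted by sign alone. Among them, NOTCH2 in the tet-MUC1shRNA line also gained the call with library size alone (adjusted p = 0.0022). DLK2 in 3D against 2D cells also lost it with the other mammosphere group (adjusted p = 0.53). Requiring an absolute log2 change above 1.5 left 2 of the 10 genes, 9 other pathway genes and 3107 of all genes in 3D against 2D cells, 0, 0 and 140 with GO-203, 2, 3 and 1695 in the tet-MUC1shRNA line, and 5 other pathway genes and 2085 of all genes in the tet-MYCshRNA line. For the difference between the lines it left 4, 8 and 3487. NOTCH1 in the tet-MYCshRNA line sits at that limit (-1.50001). Leaving out each library in turn, the GO-203 comparison held 1 to 3 of the 10 genes, with JAG2 from -0.0918 to 0.0424 and DLL1 from -0.82 to 0.40. NOTCH2 in the tet-MUC1shRNA line ranged from -0.0474 to 0.0262 in these fits and changed sign with library size alone (0.16), with at least 10 counts in every library (0.0455) and with halved counts (0.0286). The difference between the lines for NOTCH1 ranged from -0.0385 to 0.19. Where the vehicle-treated tet-MUC1shRNA group stood in for 3D cells, NOTCH2 (0.70), JAG2 (-1.14) and DLK2 (-0.12) changed sign. The cause was not tested. With library size alone, 61.2% rather than 49.1% of the differences between the lines were higher.

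Replicate numbers did not pair the samples, with mean correlations of same-numbered deviations of -0.07, 0.17, 0.05 and -0.27 in the 4 comparisons. With the replicate block, 8, 3, 6 and 6 of the 10 genes changed, the same numbers as without it, and DLK2 in 3D cells lost its call (adjusted p = 0.13). Depth limits NOTCH4, DLL4 and DLL1, and the other 7 genes had at least 332 counts in each group.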
